A study of Mus musculus with 4 samples.

Results

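The genes described here carry the unfolded protein response and the integrated stress response, and 10 of them were chosen by name among the 55487 genes listed in the files: Atf4, Ddit3, Asns, Trib3, Chac1, Hspa5, Xbp1, Herpud1, Hsp90b1 and Ern2. Their transcripts were measured by RNA-seq in mouse small intestinal organoids, which are epithelial cultures grown from isolated crypts, after lentiviral transduction. The 2 groups were organoids carrying a miRNA mimic control (replicates 1 and 2) and organoids carrying a miR-181a-5p mimic (replicates 3 and 4), and all organoids had been grown in IntestiCult medium with 2 ug/ml puromycin to select transduced cells. Strain, age and the time after infection were not given in the labels, and it was not stated whether the replicates of a group came from separate cultures, so that p-values measure only the spread between these libraries, which may be technical. The level of miR-181a-5p itself was not analysed here. None of the 10 genes passed the test at an adjusted p under 0.05, which 3.38% of all 17155 tested genes did. Each of the 10 log2 fold changes had a 95% interval that stayed within a 2-fold change in either direction. Over all tested genes 66.4% had such an interval.

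The unfolded protein response senses misfolded protein in the lumen of the endoplasmic reticulum through IRE1, PERK and ATF6, and it raises the capacity of that compartment to fold, export and degrade protein. The integrated stress response joins PERK with kinases that sense amino acid shortage, viral RNA and heme shortage, and all of them phosphorylate the translation factor eIF2, which slows general translation while the Atf4 message is translated more. Secretory cells of the gut, above all Paneth and goblet cells, depend on these pathways because of their load of secreted protein. Gene-level counts show the amount of transcript only, and not the splicing of Xbp1, the phosphorylation of eIF2 or the amount of ATF4 protein.

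Libraries held between 31104884 and 38111731 expected counts. In controls 1 and 2 the absolute log2 ratio between the libraries had a median of 0.17 over the 17155 tested genes, and in mimics 3 and 4 it was 0.14. Epcam, an epithelial adhesion molecule, was at a mean of 645 TPM, while the mesenchymal markers Col1a2, Col3a1, Dcn and Lum were listed at 0 in all 4 libraries, where the summed TPM of the mesenchymal list was 2.33 to 6.92. The sum of the enterocyte markers, genes of absorptive cells, was 2815 and 3846 TPM in controls 1 and 2. In mimics 3 and 4 it was 2211 and 2224 TPM. By edgeR 1 of the 7 was called lower and 0 higher, where 2.17% and 1.21% of all tested genes were. Log2 fold changes were below 0 in 6 of the 7 and above 0 in 1. The part of these differences in the results below was not tested. Levels of one gene are given below as normalized CPM (counts divided by library sizes after TMM correction), and levels of different genes are compared as TPM (a measure of transcript share that corrects for length).

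The lentivirus of the treated organoids expressed a mimic of miR-181a-5p, whose mature sequence is shown because its seed defines the sites searched for in the transcripts. The RefSeq sequence has 23 bases and is encoded by Mir181a-1 at chr1:137966468-137966490 and by Mir181a-2 at chr2:38852741-38852763, both on the plus strand of GRCm38. Capitals mark the seed, bases 2 to 8.
miR-181a-5p: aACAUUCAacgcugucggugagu
A match to bases 2 to 7 followed by A (7mer-A1) was found in the longest annotated 3' UTR of Hspa5, and a match to bases 2 to 8 followed by A (8mer) in that of Hsp90b1. These windows are shown with the site in capitals.
Hspa5, chr2:34776188-34776216, plus strand: acttaagtctcGAATGTAattggaatctt
Hsp90b1, chr10:86690902-86690931, minus strand: aacattcctccTGAATGTAaatttgtacta
The Hspa5 site begins at base 86 of a 3' UTR of 1434 bases, and the Hsp90b1 site at base 182 of 262. The other 8 genes held no 7mer-m8 (bases 2 to 8), 7mer-A1 or 8mer match in 3' UTRs of 81 to 989 bases. Over 12847 3' UTRs with a median of 1165 bases, 12.6% held the bases of a 7mer-A1 and 6.09% an 8mer. The 12.6% includes every 3' UTR with an 8mer, since an 8mer contains those bases. The 3' UTRs of 9 members were shorter than that median.

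Transcripts of the endoplasmic reticulum chaperones were the most abundant of the 10. Hsp90b1, the chaperone GRP94, had a mean of 349 TPM over the 4 libraries (289 to 406), a level above that of 98.3% of the tested genes. Hspa5, the chaperone BiP that holds the sensors inactive in unstressed cells, followed at 277 TPM (208 to 316). The transcription factors Xbp1 and Atf4 came next at 152 TPM (130 to 163) and 134 TPM (111 to 150), with ranges that overlap, and Asns, the enzyme that makes asparagine, stood at 94.1 TPM (78.1 to 107). Abundance then dropped through Herpud1 at 49.0 TPM and Ddit3 at 22.3 TPM to the lowest genes. Trib3 had 12.4 TPM (7.72 to 17.7), Chac1 6.23 TPM (4.33 to 8.09) and Ern2 3.79 TPM (2.89 to 4.60). The same order held in every library, except that Atf4 stood above Xbp1 in mimic replicate 3 and Ern2 above Chac1 in mimic replicate 4. Over the libraries, the range of Chac1 overlapped those of both Trib3 and Ern2.

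**Figure D1:**
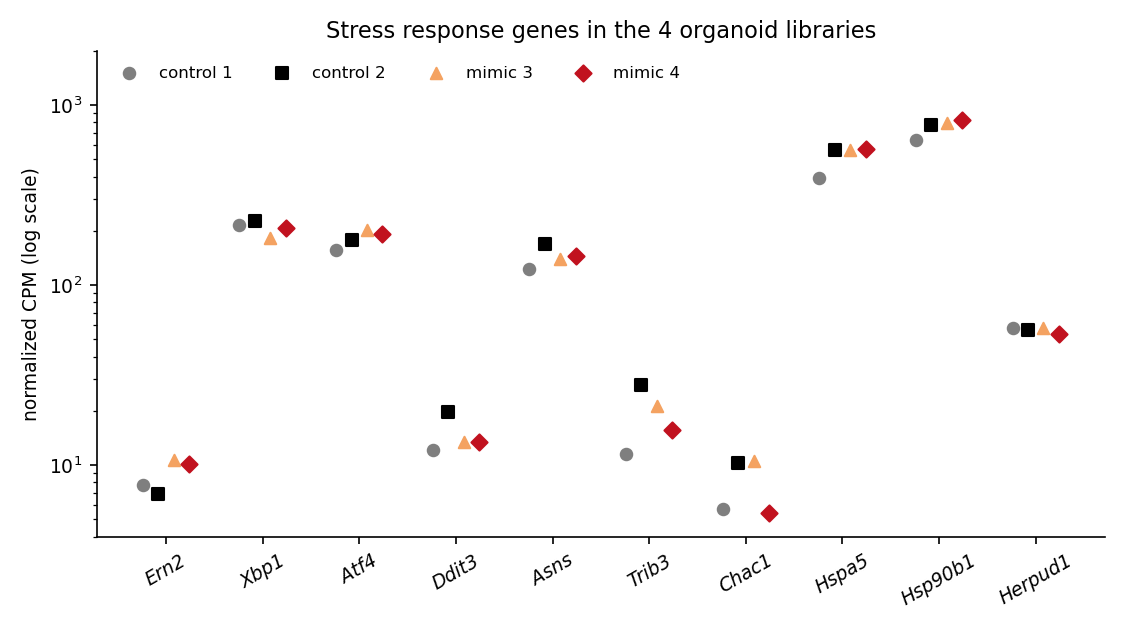
Normalized CPM of the 10 stress response genes in each of the 4 libraries, on a log10 axis, with grey and black points for control replicates 1 and 2 and orange and red points for mimic replicates 3 and 4. The 2 control points of a gene stand well apart in Trib3, Chac1, Ddit3, Hspa5 and Asns. In Ern2 both mimic points (10.7 and 10.1) are above both control points (7.72 and 6.91).

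Ern2 encodes IRE1β, the gut form of the IRE1 sensor, which is known from goblet cells of the gut epithelium. Its normalized CPM was 7.72 in control replicate 1, 6.91 in control replicate 2, 10.7 in mimic replicate 3 and 10.1 in mimic replicate 4. Both mimic libraries lay above both controls. The group means were 7.31 ± 0.576 and 10.4 ± 0.475 normalized CPM (SD, n = 2 each), and the log2 fold change of mimic over control was 0.51 ± 0.16 (SE, 95% interval 0.12 to 0.89), with an unadjusted p of 0.0162 and an adjusted p of 0.123 by the edgeR quasi-likelihood test, adjusted after Benjamini and Hochberg. This was the only member with an unadjusted p under 0.05, a level that 24.5% of all tested genes reached. Between 214 and 358 reads per library stood behind the values. The gene lies at chromosome 7, 122169893 to 122186207, on the minus strand of GRCm38. Ern1, the sensor IRE1α that most cells use, is outside the 10 genes and was looked at after the values of Ern2 were seen. It had 48.1 and 55.1 normalized CPM in control replicates 1 and 2 and 56.1 and 59.9 in mimic replicates 3 and 4, a log2 fold change of 0.17 with an adjusted p of 0.376.

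Markers of goblet cells, the cells known for Ern2, were followed beside it. Of 10 listed goblet cell genes tested, 0 were higher and 1 was lower at an adjusted p under 0.05 by edgeR. Over all tested genes these shares were 1.21% and 2.17%. In the list 6 log2 fold changes were above 0, with a median of 0.27. The gene that fell was Spink4, a secreted goblet cell product, from 126 and 129 normalized CPM in controls 1 and 2 to 78.0 and 91.4 in the mimic libraries (log2 fold change -0.59 ± 0.11, adjusted p = 0.0384), and it was not called without mimic replicate 3 (adjusted p = 0.199). Tff3, a secreted mucosal peptide, was below both controls in both mimic libraries as well (-0.43, adjusted p = 0.0546). Both mimic values were above both controls in 28.9% of all tested genes and below both in 29.5%. As with Ern2, they were above in 4 goblet cell genes, none past the test. These were Spdef (0.72, adjusted p = 0.0657) and Atoh1 (0.62, adjusted p = 0.126), transcription factors of secretory cells, Agr2, a protein disulfide isomerase of the endoplasmic reticulum (0.55, adjusted p = 0.0984), and Guca2a, the hormone guanylin (0.38, adjusted p = 0.176). The groups overlapped in the rest of the list, none past the test. Their log2 fold changes were 0.59 for Muc2, 0.15 for Fcgbp, -0.94 for Clca1 and -1.19 for Zg16, the lowest of the list. The summed TPM of the list was 1324 and 1438 in the controls and 1250 and 1318 in the mimic libraries. In bulk RNA, fewer cells of a type cannot be told apart from less RNA per cell. The part of the cell make-up in the Ern2 values was not tested.

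Xbp1 encodes the transcription factor that IRE1 activates by removing an intron from its message, and it is needed for Paneth and goblet cells. It lies at chromosome 11, 5520659 to 5525893, on the plus strand. It was at 216 and 227 normalized CPM in control replicates 1 and 2, and at 182 and 208 in mimic replicates 3 and 4. Xbp1 was the only member with every mimic value under every control value. The means were 222 ± 7.62 and 195 ± 18.9 normalized CPM (SD, n = 2), with a log2 fold change of -0.19 ± 0.11 (95% interval -0.44 to 0.07, adjusted p = 0.327 by edgeR). The summed TPM of Paneth cell markers was 2233 and 1190 in controls 1 and 2 and 1225 and 1550 in mimics 3 and 4. Of the 6 tested genes of that list 0 passed, 5 log2 fold changes were below 0, as that of Xbp1 was, and the median was -0.64. Over all 17155 tested genes 8810 were below 0. The lowest were Ang4, an antimicrobial protein (-1.02, adjusted p = 0.0546), and the protease Mmp7 (-0.96, adjusted p = 0.146). Mmp7 stood at 2.68 normalized CPM in mimic 3 and 6.04 in mimic 4, against a control mean of 8.55. The groups overlapped in the rest of the tested list, with log2 fold changes of -0.25 for Lyz1, -0.49 for Defa24, -0.80 for Defa17 and 0.11 for Itln1. Control replicate 1 had the higher Paneth sum and the lower Xbp1 value of its group, and mimic replicate 4 the higher of both. Much of that sum in control replicate 1 lay in the defensins Defa24 (756 TPM) and Defa17 (784 TPM). These stood at 275 and 268 TPM in control replicate 2, while Itln1 of the same list was at 429 and 443 TPM in controls 1 and 2. The part of the cell make-up in the Xbp1 values was not tested.

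Atf4, the main transcription factor of the integrated stress response, lies at chromosome 15, 80255184 to 80257541, on the plus strand. Its values were 157 and 177 normalized CPM in controls 1 and 2 and 203 and 192 in mimics 3 and 4. Every mimic library was thus above every control. The means of 167 ± 14.1 and 198 ± 7.94 (SD, n = 2) gave a log2 fold change of 0.24 ± 0.11 with a 95% interval of -0.01 to 0.49, an unadjusted p of 0.0540 and an adjusted p of 0.212 by edgeR. Leaving out 1 library at a time gave 0.15 to 0.33, none past the threshold.

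Ddit3 encodes CHOP, a factor that ATF4 induces and that is known for its role in cell death under lasting stress. It had 12.1 and 19.6 normalized CPM in controls 1 and 2 and 13.4 in each mimic library. The mimic libraries stood between the controls. Its log2 fold change was -0.24 ± 0.22 (95% interval -0.76 to 0.28, adjusted p = 0.540 by edgeR). The sign rested on 1 library, being -0.55 without control replicate 1 and 0.15 without control replicate 2. The gene lies at chromosome 10, 127290774 to 127296288, on the plus strand, where it overlaps Mars, Gm4189 and another identifier of the same name, and its estimated counts were whole numbers in only 1 library, as arises where RSEM divides reads between genes.

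Asns, Trib3 and Chac1 are textbook targets of ATF4 and CHOP. Their promoters are shown because the 3 genes hold the composite site that C/EBP and ATF factors bind (TGATG, any base, AA and any base, on either strand). The composite was found in 3.95% of 32851 RefSeq promoter windows reaching from 250 bases before to 50 after the start. Capitals mark the match.
Asns, chr6:7693204-7693252, minus strand: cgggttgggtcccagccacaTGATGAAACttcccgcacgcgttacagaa
Chac1, chr2:119351028-119351076, plus strand: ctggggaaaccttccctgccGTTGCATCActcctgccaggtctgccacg
Trib3, chr2:152344019-152344067, minus strand: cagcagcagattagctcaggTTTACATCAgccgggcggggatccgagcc
The match begins 23 bases before the RefSeq start in Asns, lies on the opposite strand from 194 to 186 bases before it in Chac1, and lies on the opposite strand from base 13 to base 21 after it in Trib3. No match to it was found in the windows of Atf4, Ddit3 and Xbp1.

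Asns had 123 and 168 normalized CPM in controls 1 and 2 and 139 and 145 in mimics 3 and 4, and the mimic libraries fell between the controls. Its means were 145 ± 31.7 and 142 ± 4.47 (SD, n = 2), and its log2 fold change was -0.03 ± 0.15 (95% interval -0.38 to 0.31, adjusted p = 0.909 by edgeR). The gene lies at chromosome 6, 7675169 to 7693254, on the minus strand. Trib3, a pseudokinase that dampens ATF4 and CHOP, had 11.5 and 27.9 normalized CPM in controls 1 and 2 and 21.3 and 15.6 in mimics 3 and 4. Both mimic values again lay between the controls, which differed 2.42-fold. The log2 fold change of Trib3 was -0.09 ± 0.37 (95% interval -0.95 to 0.76, adjusted p = 0.899), and it lies at chromosome 2, 152337422 to 152344032, on the minus strand. Leaving out control replicate 1 gave -0.61 and leaving out control replicate 2 gave 0.68, neither past the threshold. Leaving out mimic replicate 4 gave 0.11.

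Chac1 degrades glutathione and is induced through ATF4. It had 5.66 and 10.2 normalized CPM in controls 1 and 2 and 10.5 and 5.42 in mimics 3 and 4, so that each group held 1 high and 1 low library. The means were nearly equal at 7.94 ± 3.23 and 7.96 ± 3.59 (SD, n = 2), with a log2 fold change of 0.01 ± 0.37 (95% interval -0.85 to 0.86, adjusted p = 0.996 by edgeR). The interval was as wide as that of Trib3, and the values rested on 193 to 329 reads per library. Leaving out 1 library at a time moved the Chac1 value from -0.55, without mimic replicate 3, to 0.49, without control replicate 2, and turned its sign without control replicate 1 as well (-0.37). The gene lies at chromosome 2, 119351229 to 119354381, on the plus strand.

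Hspa5, Hsp90b1 and Herpud1 belong to the folding and degradation arm that ATF6 and XBP1 control. Their promoters are shown because each holds an element to which those factors are known to bind. The endoplasmic reticulum stress element (ERSE: CCAAT, then 9 bases, then CCACG, on either strand) was found in 0.119% of the RefSeq promoter windows, among them Hspa5, with 1 match, and Hsp90b1, with 2. The shorter ERSE-II (ATTGG, 1 base, CCACG, on either strand) was found in 0.0365%, among them Herpud1, which holds the C/EBP-ATF composite as well, without overlap. Capitals mark the matches.
Hspa5, chr2:34772005-34772063, plus strand: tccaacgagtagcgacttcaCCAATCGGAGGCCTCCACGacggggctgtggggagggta
Hsp90b1, chr10:86705513-86705676, minus strand: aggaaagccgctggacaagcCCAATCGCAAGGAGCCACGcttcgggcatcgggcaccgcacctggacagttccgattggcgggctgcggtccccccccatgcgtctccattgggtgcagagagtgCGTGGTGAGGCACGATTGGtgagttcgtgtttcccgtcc
Herpud1, chr8:94386296-94386407, plus strand: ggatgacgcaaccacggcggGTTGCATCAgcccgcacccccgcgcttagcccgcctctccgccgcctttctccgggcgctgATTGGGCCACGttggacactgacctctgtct
The Hspa5 match spans 65 to 47 bases before the RefSeq start, and the Hsp90b1 matches begin 212 and 107 bases before it, the second on the opposite strand. In Herpud1 the composite begins 113 bases before the start, on the opposite strand, and ERSE-II 52 bases before it. These matches describe the sequence alone. RefSeq starts can differ from those of the GENCODE gene models behind the coordinates given for each gene.

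Hspa5 had 395 normalized CPM in control replicate 1, 563 in control replicate 2, 564 in mimic replicate 3 and 571 in mimic replicate 4. The mimic libraries were above both controls, but 1 of the controls was almost level with them. Group means were 479 ± 119 and 568 ± 5.16 (SD, n = 2), with a log2 fold change of 0.25 ± 0.17 (95% interval -0.14 to 0.63, adjusted p = 0.395 by edgeR). This comparison turned on the controls. Without control replicate 2 the log2 fold change was 0.53 with an adjusted p of 0.0209, the only case in which a member passed, and 10.9% of all tested genes passed in that fit. Without control replicate 1 it was 0.0039 with an adjusted p of 0.990. Hspa5 lies at chromosome 2, 34771970 to 34777547, on the plus strand.

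Hsp90b1 had 642 and 772 normalized CPM in controls 1 and 2 and 789 and 827 in mimics 3 and 4, all of the latter above the former. Its log2 fold change was 0.19 ± 0.12 (95% interval -0.09 to 0.48, adjusted p = 0.368 by edgeR), on 23933 to 29451 reads per library. It lies at chromosome 10, 86690209 to 86705509, on the minus strand and overlaps 1810014B01Rik, Gm15344 and Gm25745, and its estimated counts were whole in 0 libraries. For Hspa5 and Hsp90b1, whose 3' UTRs hold a miR-181a-5p seed match, the part of these sites in the values was not tested. Herpud1, a membrane protein that organizes the degradation of misfolded protein, had the narrowest range of the 10. It stood at 57.4 and 56.4 normalized CPM in controls 1 and 2 and 57.3 and 53.3 in mimics 3 and 4, overlapping, with a log2 fold change of -0.04 ± 0.10 (95% interval -0.27 to 0.19, adjusted p = 0.832). It lies at chromosome 8, 94386438 to 94395377, on the plus strand and overlaps Gm15890.

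Over the 10 genes, 5 log2 fold changes were above 0 and 5 below, with a median of -0.01, equal to the median of all tested genes. Without control replicate 1 the median was -0.13 with 4 above 0, and without control replicate 2 it was 0.33 with 8 above 0. No member was called higher, where 1.21% of the 17155 tested genes were, and none lower, where 2.17% were, or 3.38% in either direction, so 0 of 10 calls is near this background. The count at an unadjusted p under 0.05 was 1, a level that 24.5% of all tested genes reached. Further, 0 members were called by edgeR's exact and likelihood-ratio tests or by DESeq2. Those tests called more of all tested genes than the main test, with counts given in the closing section. Both mimic libraries were above both controls in 4 members (Atf4, Hspa5, Hsp90b1 and Ern2), against 28.9% of all tested genes, and below in 1 (Xbp1), against 29.5%. The groups of the other 5 overlapped. All 10 members had an interval inside the 2-fold bounds, against 66.4% of tested genes, and the widest, those of Trib3 and Chac1, reached almost to 2-fold.

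**Figure D2:**
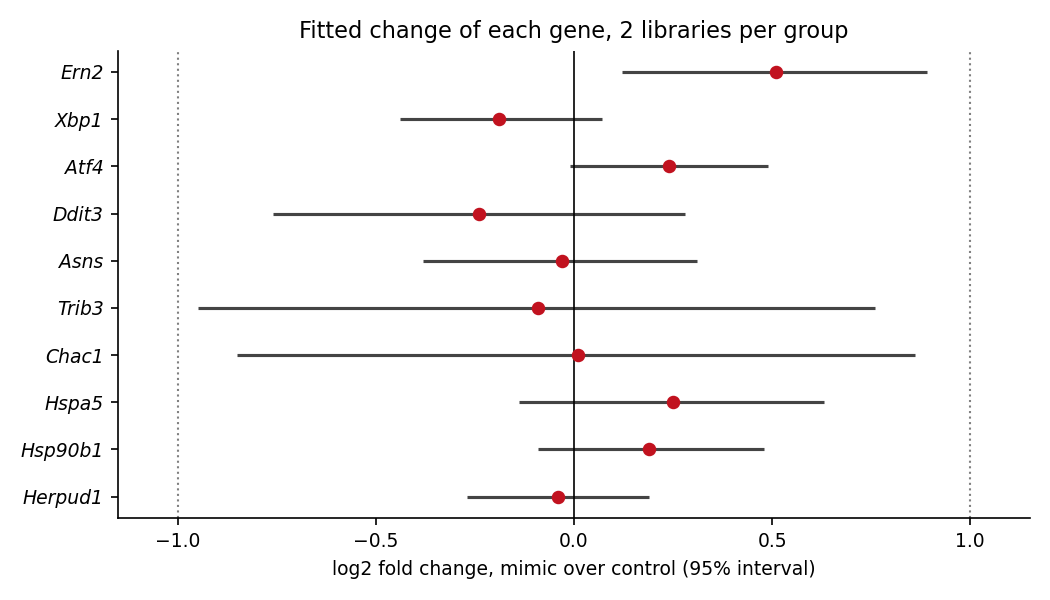
Log2 fold change of mimic over control for the 10 genes (points) with 95% intervals from edgeR's quasi-likelihood test (lines), the dotted lines marking a 2-fold change. All 10 intervals lie inside the dotted lines, and only that of Ern2 (0.12 to 0.89) excludes 0.

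The replicates of a group differed more in several of these genes than in most. Between the controls, Trib3 was 2.42-fold apart, and 0.548% of tested genes were at least that far apart. Chac1 was 1.81-fold apart (2.56% of genes), Ddit3 1.62-fold (4.55%), Hspa5 1.43-fold (9.32%) and Asns 1.36-fold (12.9%). All 5 were higher in control replicate 2, as were 8 of the 10, the exceptions being Herpud1 and Ern2. Of all 17155 tested genes, 8413 were higher in that library than in control replicate 1. The mimic libraries were close in Ddit3 and Hspa5, both 1.01-fold apart, and in Asns at 1.05-fold. Chac1 was 1.94-fold apart there (1.29% of genes) and Trib3 1.36-fold, both in favour of mimic replicate 3. The difference between controls exceeded that between mimic libraries in 7 of the 10 genes. Over all tested genes the median absolute log2 ratio was 0.17 between the controls and 0.14 between the mimic libraries. The 3 ATF4 targets Asns, Trib3 and Chac1 thus differed between the controls by more than the group means did, as did Ddit3, Hspa5 and Hsp90b1.

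**Figure D3:**
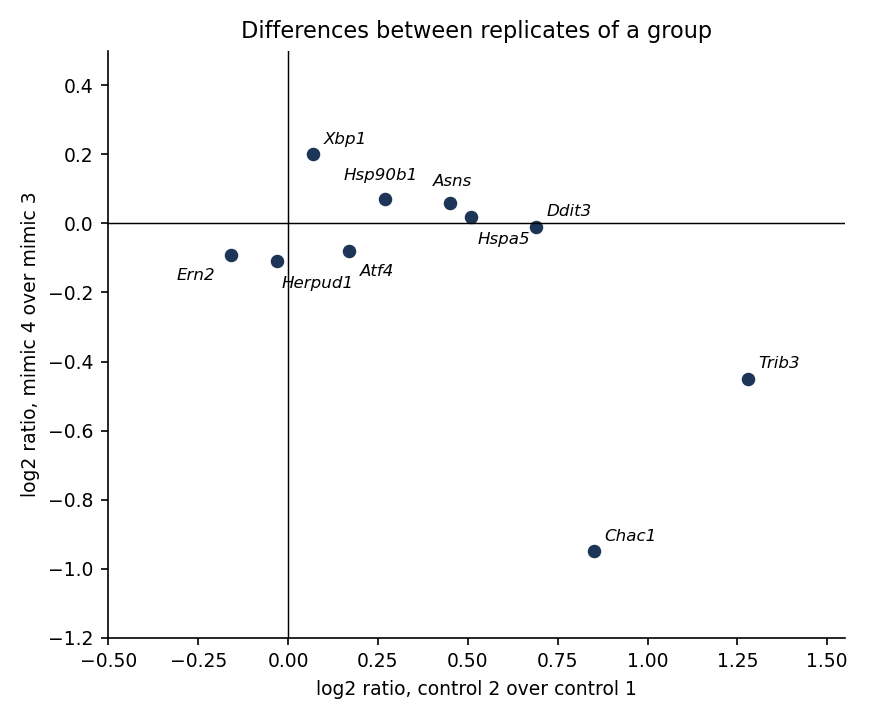
Log2 ratio of control replicate 2 over control replicate 1 (horizontal) against that of mimic replicate 4 over mimic replicate 3 (vertical) for the 10 genes, with lines at 0 where replicates are equal. Trib3 (1.28 and -0.45) and Chac1 (0.85 and -0.95) lie far from the crossing, and Herpud1, Ern2 and Atf4 close to it.

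The wider pathways were followed in 11 lists that held the 10 members and 156 further genes, 152 of these tested. Counts for a single list include its members. Of the 152, 3 were higher and 2 lower by edgeR, or 3.29%, close to the 3.38% of all genes. Log2 fold changes above 0 were seen in 121 of the 152, with a median of 0.17, where 48.6% of all tested genes were above 0. The size of that shift depended on the controls. The median was 0.07, with 99 genes above 0, without control replicate 1, where 49.7% of all tested genes were above 0. It was 0.27, with 125 above 0, without control replicate 2, where 48.7% of all tested genes were. In the latter fit 36 of the 152 passed as higher, or 23.7%, where 5.42% of all tested genes did. Without mimic replicate 3 the median of the 152 was 0.15, with 116 above 0, where 49.0% of all tested genes were. Without mimic replicate 4 it was 0.17, with 117 above 0, where 48.2% of all tested genes were.

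Among the sensors and eIF2 kinases, 0 of 8 passed and the median log2 fold change was 0.21. By mean TPM the most abundant were Eif2ak2, the kinase PKR (21.2 TPM), and Atf6b (16.4 TPM). Eif2ak2 had 57.0 and 55.7 normalized CPM in controls 1 and 2 and 50.9 and 58.3 in the mimic libraries. Atf6b had 26.4 and 29.3 against 36.3 and 35.0 (log2 fold change 0.36, adjusted p = 0.110). Of 10 subunits of eIF2, its exchange factor eIF2B and its phosphatases, 1 rose and 1 fell. Eif2b1, the α subunit of eIF2B, rose from 47.3 and 46.7 to 72.1 and 64.1 normalized CPM (0.54 ± 0.10 on the log2 scale, adjusted p = 0.0423). Ppp1r15a, or GADD34, an ATF4-induced subunit that directs the phosphatase to eIF2, fell from 17.1 and 23.4 to 10.8 and 11.7 (-0.85 ± 0.18, adjusted p = 0.0491), and it overlaps Tulp2. Eif2s2 had a log2 fold change of 0.20 and Eif2s3x 0.06, neither past the test. Eif2b1 was no longer called without control replicate 1 (adjusted p = 0.0683) or mimic replicate 3 (0.202), nor Ppp1r15a without control replicate 2 (0.0520), mimic replicate 3 (0.143) or mimic replicate 4 (0.0556).

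Stress transcription factors, 15 tested, held 1 call, a fall, which was Nupr1, a small chromatin protein induced by stress, and Nupr1 stood in the list of ATF4 signalling targets too. Nupr1 fell from 84.0 and 108 normalized CPM in controls 1 and 2 to 35.5 and 38.3 in mimics 3 and 4. The log2 fold change was -1.38 ± 0.14 with an adjusted p of 0.00674 by edgeR, the largest change among the genes named here, and leaving out any 1 library gave -1.56 to -1.19. The median of the list was 0.06. Atf5, a relative of Atf4, had its lowest value in control replicate 1 too, with 67.9 and 106 in the controls and 118 and 92.6 in the mimic libraries (0.28, adjusted p = 0.444). In the list of 12 ATF4 signalling targets tested, the 2 falls were Nupr1 and Ppp1r15a, where 2.17% of all tested genes were called lower. Of the 12, 5 were above 0 and 7 below, from -1.38 to 1.03, with a median of -0.10. Ddit4, an inhibitor of mTORC1, stood at 84.4 and 80.8 against 113 and 104 (0.39, adjusted p = 0.0729).

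Of 19 ATF4 targets in amino acid and one-carbon metabolism, 0 passed, 13 were above 0, and the median was 0.37, the highest of the 11 lists. It was 0.13 without control replicate 1 and 0.48 without control replicate 2. In control 2, 17 of the 19 were higher than in control 1, as were 8413 of all 17155 tested genes. Aldh18a1, which makes the precursor of proline, had 438 and 538 in the controls against 528 and 445, and Phgdh, the first enzyme of serine synthesis, 88.2 and 109 against 112 and 114 (0.20, adjusted p = 0.351). None of 20 cytosolic aminoacyl-tRNA synthetases passed, while 19 were above 0 with a median of 0.17. Nars, the asparagine enzyme, stood at 254 and 332 against 463 and 413 normalized CPM (0.58, adjusted p = 0.0761), and Qars, the glutamine enzyme, at 179 and 167 against 156 and 165 (-0.11).

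Of 23 chaperones and foldases of the endoplasmic reticulum, 1 rose and 20 were above 0, with a median of 0.25. The gene that rose was Dnajc10, or ERdj5, a reductase that unfolds proteins for degradation, from 44.5 and 48.7 to 63.9 and 68.4 normalized CPM (0.51 ± 0.10, adjusted p = 0.0472). It lost the call without control replicate 1 (adjusted p = 0.110), mimic replicate 3 (0.112) or mimic replicate 4 (0.120). P4hb, protein disulfide isomerase, had 1142 and 1519 against 1262 and 1424 and Calr, the lectin chaperone calreticulin, 391 and 554 against 715 and 658 (0.54, adjusted p = 0.113). In this list 22 of 23 genes were higher in control replicate 2 than in control replicate 1, as were 8413 of all 17155 tested genes. The median of the list was 0.14 without control 1 and 0.42 without control 2. Of 22 promoters of the list in the RefSeq windows, 7 held an ERSE.

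None of 18 genes of endoplasmic reticulum-associated degradation passed (median 0.16). Vcp, the ATPase that extracts proteins for the proteasome, stood at 395 and 464 against 525 and 497 normalized CPM (0.25) and Os9, a lectin of that pathway, at 117 and 115 against 121 and 116 (0.03). Of 21 translocation genes 1 rose, Sec11c, a catalytic subunit of the signal peptidase, from 26.9 and 29.8 to 44.3 and 44.5 (0.65 ± 0.11, adjusted p = 0.0273). It overlaps AC124578.1, and it lost the call without control replicate 1 (0.0523) or mimic replicate 3 (0.0744). The translocon-associated genes Ssr2 and Ssr3 had 0.12 and 0.06, and the list's median was 0.13.

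The stress responses of other compartments are given for comparison. Of 10 tested genes of the cytosolic heat shock response 0 passed (median 0.14), with Hspa8 at 2496 and 2316 against 2579 and 2198 and Hsp90ab1 at 2369 and 2085 against 2316 and 2174 normalized CPM. Of 8 genes of the mitochondrial stress response 0 passed (median 0.09), with the chaperones Hspd1 at 718 and 821 against 945 and 786 and Hspa9 at 697 and 885 against 866 and 808. None of the 5 called pathway genes held a 7mer-m8 match to miR-181a-5p in its longest 3' UTR, where 18.4% of 3' UTRs did.

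**Figure D4:**
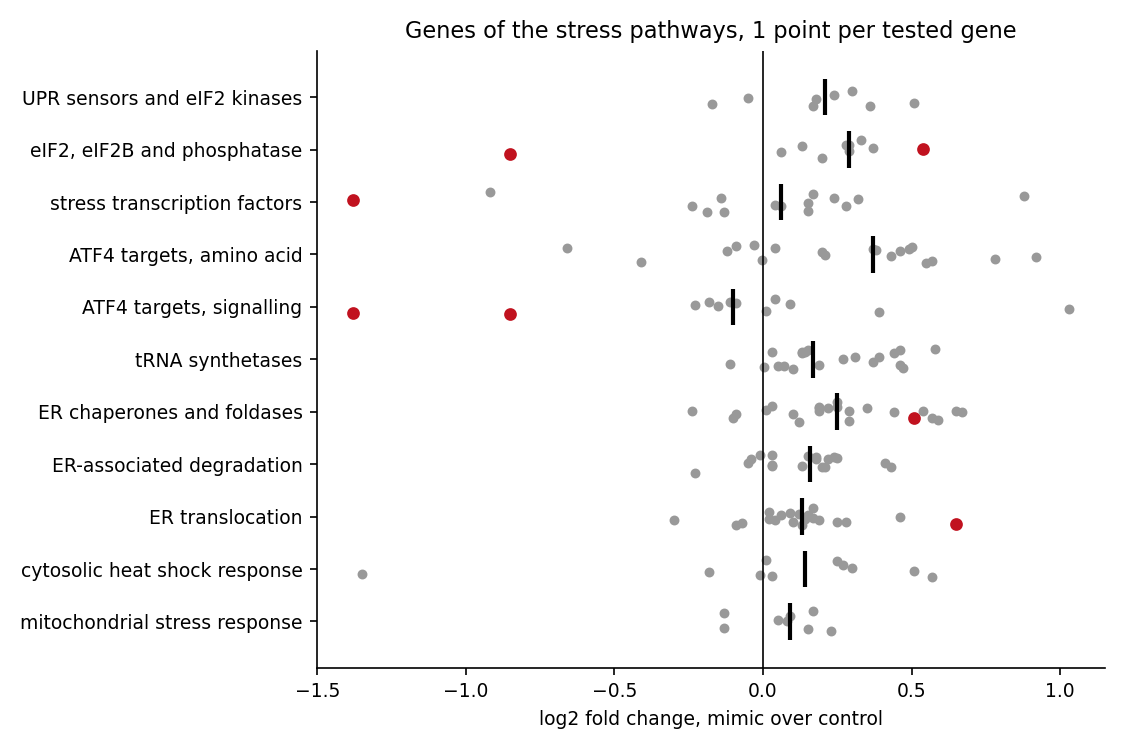
Log2 fold change of mimic over control for each tested gene (points) of the 11 pathway lists, with the list median as a bar and genes at an adjusted p under 0.05 by edgeR in red. Medians lie between -0.10 and 0.37, and 5 genes are red, with Nupr1 and Ppp1r15a below 0, each drawn in both lists that hold it, and Eif2b1, Dnajc10 and Sec11c above.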

How the data were processed

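RNA-seq libraries of mouse SI organoids with a miRNA mimic control (2) or a miR-181a-5p mimic (2) were analysed. The authors trimmed reads with Trimmomatic, mapped them to GRCm38 transcripts with RSEM and deposited expected counts per gene, without normalization, and TPM. The sample labels give poly(A) enrichment and the supplemental methods ribosomal RNA depletion. Each deposited file held 3 more columns whose names fitted none of the samples, and these were left out. Libraries held 31104884 to 38111731 expected counts, and precision is set by the 2 libraries per group (an exact permutation test cannot go below p = 0.333).

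The deposited expected counts were rounded, filtered with filterByExpr and scaled by TMM, and edgeR 4.0.16 (R 4.3.3) fitted the model with estimateDisp, glmQLFit and glmQLFTest. P-values were adjusted after Benjamini and Hochberg over all 17155 tested genes. The SE is the log2 fold change over the square root of F. For a symbol with more than 1 identifier, that of the highest mean was taken. Coordinates and 3' UTRs came from GENCODE M21 (GRCm38), miRNA and promoter sequences from RefSeq (GRCm38.p6, promoters for 9 of the 10 members). The members and gene lists were chosen with earlier results of these data known. Named beside the members were all called genes of a pathway list and the 2 of its genes, members aside, with the highest mean TPM, where a called gene could be 1 of these 2. Ern1 and the goblet and Paneth cell genes were named after their values were seen. As alternatives, DESeq2 1.42.0, the exact and likelihood-ratio tests of edgeR, other scalings and filters, limma 3.58.1 on log2(TPM + 1) or log2(TPM + 0.1), and fits without each library in turn were run. The steps were tested on simulated counts.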

Additional observations from a re-analysis of the deposited data

How the results depend on the processing

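The spread of 2 libraries per group limits every call, and a lone library left in a group was assumed to vary like the other group. No paired analysis was possible because the groups share no replicate number. Over all tested genes, 207 were higher and 373 lower, and 95 and 244 of these by at least 2-fold. DESeq2 called 626 higher and 704 lower. The exact test called 761 and 1027 (200 and 530 by at least 2-fold), the likelihood-ratio test 792 and 1072 (214 and 559) and the fit without a filter 1270 and 1511 (286 and 734). Limma called 32 and 43 on log2(TPM + 1) (30 and 41), 11 and 16 on log2(TPM + 0.1) (11 and 16), and 2 and 0 without a filter (2 and 0). Leaving out 1 library at a time gave 111 to 929 higher and 172 to 948 lower, and by at least 2-fold 85 to 194 and 142 to 497, the highest without control replicate 2. The count of members higher ranged from 0 to 1, the 1 being Hspa5 without control replicate 2. The cause was not tested.

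Of 150 log2 fold changes of the members under the alternatives, 134 kept direction and side of the threshold. Signs turned for Asns with TPM (0.06) and for Trib3 with TPM (0.04 with 0.1 added, 0.03 with 1, with or without a filter). Chac1 turned at 10 counts or more in every library (-0.01) and with upper-quartile factors (-0.04). Leaving out 1 library gave ranges of -0.25 to 0.21 for Asns, -0.61 to 0.68 for Trib3, -0.55 to 0.49 for Chac1, -0.55 to 0.15 for Ddit3 and -0.09 to 0.01 for Herpud1.

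Among other named genes, Aldh18a1 took 0.0035 with DESeq2 or RLE factors, 0.0045 without a filter, 0.02 with library totals and 0.06 with TPM. Hspa8 took 0.01 with library totals and 0.05 with TPM, Hsp90ab1 -4.8e-04 at 10 counts or more and -0.04 with upper-quartile factors, and Os9 (-0.03) and P4hb (-0.04) turned with upper-quartile factors. Leaving out 1 library gave -0.15 to 0.15 for Aldh18a1, -0.01 to 0.63 for Atf5, -0.15 to 0.05 for Eif2ak2, -0.08 to 0.10 for Hsp90ab1, -0.13 to 0.10 for Hspa8, -0.09 to 0.26 for Hspa9, -0.0047 to 0.05 for Os9, -0.19 to 0.23 for P4hb and -0.05 to 0.18 for Ssr3. The 5 called pathway genes were not called in any TPM fit. Ppp1r15a lost its call with RLE factors (adjusted p = 0.0525) and library totals (0.0501), Eif2b1 (0.0505) and Dnajc10 (0.0560) with upper-quartile factors. Of the goblet and Paneth cell genes, only Spink4, Tff3, Agr2, Spdef, Atoh1, Guca2a, Ang4 and Mmp7 were followed through the alternatives. Among these, Tff3, Agr2, Spdef and Ang4, not called in the main fit, were called by DESeq2 and by the exact and likelihood-ratio tests. As given above, these tests called more of all tested genes too.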
